A study of Mus musculus with 10 samples.

Results

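The newborn mouse cortex was profiled on 5 single-channel Applied Biosystems arrays, chosen by their titles from the 10 arrays of the series, and is described here on its own. The group was mouse cortex at postnatal day 1, untreated, pooled from 19 mice. The arrays were repeats of 1 RNA pool, so every SD below measures the spread between arrays and not between animals. Per the labels' protocols, 1 µg of total RNA was turned into digoxigenin-labelled cRNA for each array. No genotype, allele or transgene is named. The strain is C57/B6 in the sample descriptions but Swiss-Webster in the series text; which is right is not known here. The cortex had served as the reference RNA of a comparison of microarray platforms, and the 5 repeats were made to measure the variation within a platform.

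At birth the mouse cortex is a tissue under construction. Excitatory projection neurons have formed and are arranging themselves in layers while their axons and dendrites grow, inhibitory interneurons made in the ganglionic eminences are still arriving, and radial glia, the stem cells of the cortical wall, are turning to the production of glia. Astrocytes multiply after birth, and myelin and most mature synapses follow later.

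Each of the 33012 probes on the array was given its log2 intensity on every array, its mean and SD over the 5 arrays, and a rank from the brightest. A single gene symbol was available for 14411 probes, which named 13840 genes. A rank orders the signal of probes, which also depends on how well a probe binds its target, and is not a molar abundance. Where a gene had several probes, the brightest stood for it. Dim signal was judged against 747 probes for olfactory receptors, receptors of the nose whose RNA should be scarce in cortex. A probe was called above the yardstick when it exceeded, on all 5 arrays, the 95th percentile of these receptor probes, which lay between 10.85 and 11.17 on the log2 scale. This held for 13088 of 33012 probes (39.6%) and for 7320 of 13840 named genes (52.9%). The 1384 brightest named genes (10%) are called the top decile, which ended at a mean log2 intensity of 15.68. The last gene inside was Sdf2 at 15.6827 and the first outside was Slc29a4 at 15.6822, so the border separates genes that differed by far less than their spread.

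The signal spanned 6.29 to 21.09 on the log2 scale with a median of 10.22 over all probes, and 10 in 100 probes lay above 15.10. A small number of probes carried most of the light. The 10 brightest probes of an array held 2.90% ± 0.09 (SD, n = 5) of its summed intensity, the 100 brightest 17.9% ± 0.26 and the 1000 brightest 59.2% ± 0.22. Probes without a gene name were many at the top too: 59 of the 100 brightest and 478 of the 1000 brightest (47.8%) were not in the annotation, beside 55.6% of all probes. What those probes detect was not analysed here.

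**Figure D1:**
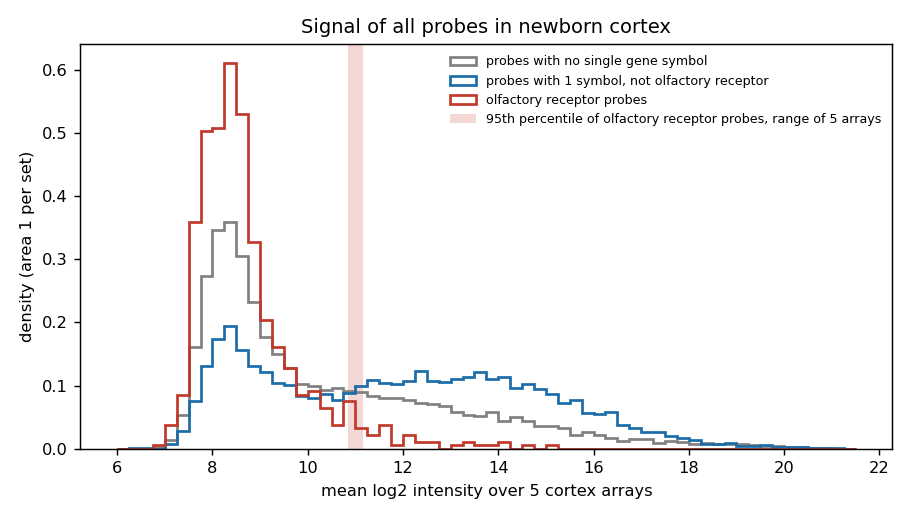
Distribution of the mean log2 intensity over the 5 cortex arrays, drawn with area 1 for each set of probes: olfactory receptor probes (red), other probes with 1 gene symbol (blue) and probes with no single symbol (grey). The pink band marks the yardstick, the 95th percentile of the red set, 10.85 to 11.17 across arrays. Olfactory receptor probes gathered around a median of 8.46, whereas named probes had a second, broad hump above the band.

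The repeat arrays followed each other closely for bright probes and loosely for dim ones. Array medians of the deposited intensity were 1324, 1255, 1310, 1256 and 1341 for arrays 1 to 5. The 10 pairs of arrays had Pearson correlations of 0.971 to 0.973 across all probes and 0.994 to 0.997 across those above the yardstick; probes are not independent replicates, and these values describe the arrays. The median SD of a probe was 0.29 over all probes, 0.10 over those above the yardstick and 0.50 over the others. Array 4 stood apart. A probe was counted against an array where that array lay lowest and its gap to the next exceeded 0.71 of the range of the 5 values. This held for array 4 in 409 probes above the yardstick and for arrays 1, 2, 3 and 5 in 27, 70, 27 and 13. Over the probes above the yardstick, the median deviation of array 4 from the mean of the other arrays was -0.07. Levels and ranks below are means that include it, and leaving it out moved no list's count in the top decile by more than 1 gene. With each gene counted once, the lists held 145 genes there with and without it.

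Among probes with a gene name, many of the brightest belonged to protein synthesis and to the growing neuron's skeleton. Of the 40 brightest named probes, which represented 39 genes, 16 were for ribosomal proteins or the elongation factor and 6 for tubulins or stathmins, the building blocks of microtubules and the proteins that hold their subunits free. Eef1a1, which carries aminoacyl-tRNA to the ribosome, was the brightest probe of the array, with 20.80, 21.26, 21.17, 21.07 and 21.13 on arrays 1 to 5 and a mean of 21.09 ± 0.17 (SD, n = 5). Its second probe came to 20.80 ± 0.13. Both probes therefore placed this gene among the 10 brightest probes. Tmsb10, a thymosin that binds actin monomers, measured 20.88, 20.88, 20.90, 20.94 and 20.82, an SD of 0.04. Tuba1a, the main alpha-tubulin of young neurons, measured 20.85, 20.75, 20.84, 20.87 and 20.63, and Tubb5, a beta-tubulin, 20.52, 20.56, 20.54, 20.52 and 20.47. Stmn2, a stathmin of growing axons, measured 20.47, 20.55, 20.60, 20.35 and 20.57. Stmn1 followed with 20.39, 20.38, 20.52, 20.22 and 20.43, array 4 being the lowest for both stathmins.

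Among these 40 probes the order of neighbours was not resolved by the arrays. They spanned 1.37 in all, from 21.09 down to 19.71, and all 39 pairs of neighbours in the order overlapped between arrays. Probes further apart could be told apart. Among all probes, Tmsb10 ranked 4 to 8 on the arrays and Rpl31 68 to 73. Only 3 probes were among the 10 brightest on all 5 arrays, out of 16 that were so on any array. The broader top was steadier: 85 probes were among the 100 brightest on every array, out of 116 on any, and 933 among the 1000 brightest, out of 1064. A pair of very bright probes were also the least steady of the 40. Mtrr, a methionine synthase reductase, measured 21.23, 21.09, 20.34, 21.44 and 21.09, and its other probe averaged 11.18, a difference of 9.86. Ube2c, a ubiquitin-conjugating enzyme of mitosis, measured 20.57, 20.40, 21.09, 20.69 and 20.20 with its only probe. What these Mtrr and Ube2c probes bind was not tested.

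**Figure D2:**
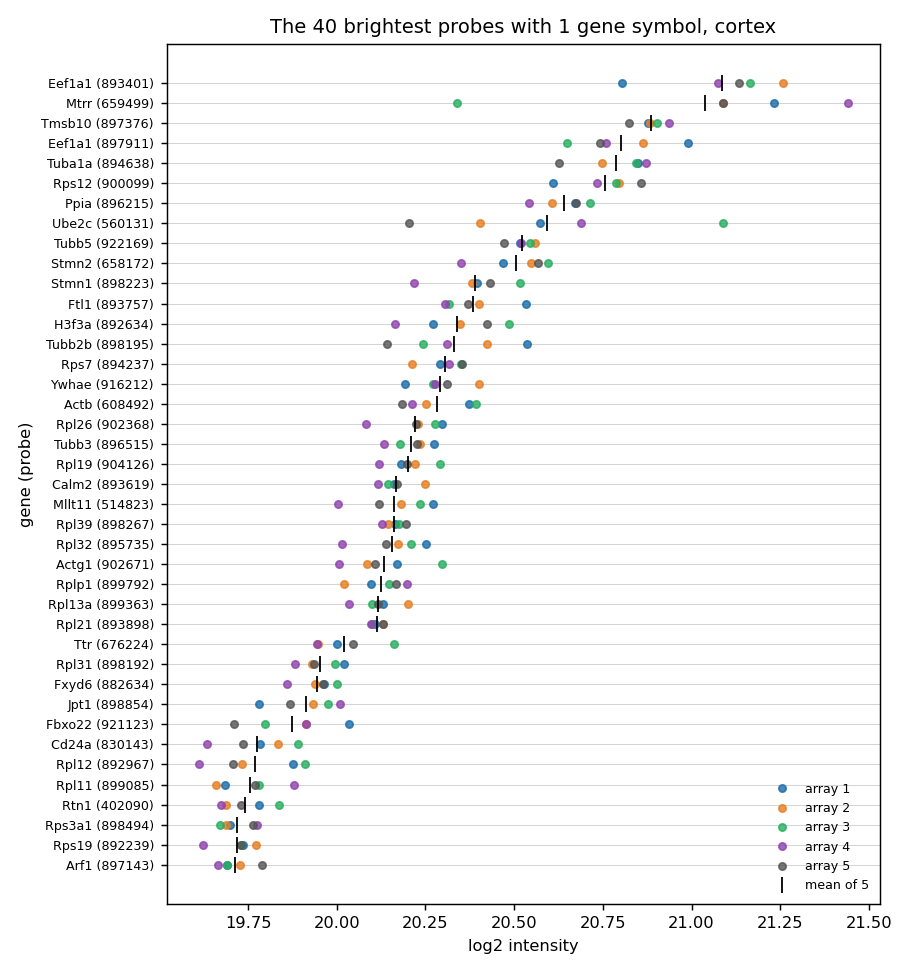
Log2 intensity of the 40 brightest probes with 1 gene symbol, ordered by mean; each point is 1 of the 5 cortex arrays and the black bar is the mean. The points of neighbouring genes overlap throughout, Mtrr and Ube2c have the widest spread, and array 4 is often the lowest point.

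The sequence before the start was set beside the rank of a gene. The 100 bases before the annotated start, 5′ to 3′ on the gene's strand, are given for leading genes of several roles, from RefSeq on GRCm38.p6. Capitals mark matches, on either strand, to the letters of 4 known promoter motifs: GGGCGG, the GC box to which Sp1 binds, and CCAAT, a box common before the starts of housekeeping and cell cycle genes, both of which may appear as their reverse complement, and TATAAA, a form of the TATA box, and TGACGTCA, the cAMP response element of peptide genes. The motifs were searched apart from each other and share no letters in these windows. Eef1a1 stands at chr9:78481725-78481824 on the minus strand, Tuba1a at chr15:98953502-98953601 (minus), Rps12, a ribosomal protein gene, at chr10:23787210-23787309 (minus), Ppia, a peptidyl-prolyl isomerase used as a reference gene, at chr11:6415767-6415866 (plus), Tubb5 at chr17:35838302-35838401 (minus), Ube2c at chr2:164769829-164769928 (plus), Fabp7, a fatty acid binding protein of radial glia, at chr10:57784823-57784922 (plus), Neurod6, a factor of young projection neurons, at chr6:55681264-55681363 (minus) and Sst, the interneuron peptide somatostatin, at chr16:23890845-23890944 (minus).
Eef1a1: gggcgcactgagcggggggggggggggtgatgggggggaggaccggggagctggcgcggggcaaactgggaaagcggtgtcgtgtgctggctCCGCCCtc
Tuba1a: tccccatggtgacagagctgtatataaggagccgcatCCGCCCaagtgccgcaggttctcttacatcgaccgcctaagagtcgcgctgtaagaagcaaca
Rps12: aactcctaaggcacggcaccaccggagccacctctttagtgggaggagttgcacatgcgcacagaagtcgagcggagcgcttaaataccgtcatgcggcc
Ppia: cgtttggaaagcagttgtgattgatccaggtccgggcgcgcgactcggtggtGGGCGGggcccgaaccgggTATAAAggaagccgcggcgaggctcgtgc
Tubb5: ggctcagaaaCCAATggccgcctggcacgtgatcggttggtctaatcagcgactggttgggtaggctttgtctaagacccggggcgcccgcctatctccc
Ube2c: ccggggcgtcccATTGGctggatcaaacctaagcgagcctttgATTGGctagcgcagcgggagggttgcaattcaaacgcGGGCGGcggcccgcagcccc
Fabp7: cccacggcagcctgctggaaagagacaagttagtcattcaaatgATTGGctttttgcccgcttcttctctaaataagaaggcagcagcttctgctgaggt
Neurod6: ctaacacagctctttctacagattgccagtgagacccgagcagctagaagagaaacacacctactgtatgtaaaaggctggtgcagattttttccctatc
Sst: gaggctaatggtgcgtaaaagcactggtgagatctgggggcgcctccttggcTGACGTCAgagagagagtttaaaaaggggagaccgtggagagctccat
Of the 9 windows, those of Eef1a1, Tuba1a, Ppia and Ube2c hold a GC box, Ube2c and Fabp7 hold CCAAT in reverse and Tubb5 forward, only Ppia has TATAAA and only Sst has TGACGTCA. Those of Rps12 and Neurod6 hold none of the 4. A match is a run of letters and not a measured binding site.

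Over all genes with a single promoter entry, 9118 of 13840 named genes, base composition moved with rank. In the 250 bases before the start, the median number of CpG dinucleotides was 18 for the top decile, 17, 17, 16, 15 and 14 for the next 5 deciles and then 9, 4, 3 and 2. GGGCGG on either strand was found in 62.2% of the top decile and 17.7% of the dimmest, beside 47.8% of these genes and 32.7% of all 32851 promoters in the table. The share with TATAAA on either strand ran the other way, 7.16% in the top decile and 25.1% in the dimmest, beside 12.4% of all promoters. CCAAT showed little such slope, with 40.3% and 35.7%, beside 33.8% of all promoters. TGACGTCA was in 4.92% of the top decile and 0.611% of the dimmest, beside 1.55% of all promoters. Olfactory receptor genes, the yardstick, had promoters with a median of 1 CpG, and 38.7% of 622 held TATAAA anywhere in the 250 bases, on either strand. Counted only on the gene's strand and 15 to 40 bases before the start, TATAAA was rarer. It was then in 0.965% of olfactory receptor genes, beside 2.95% of named genes with 1 promoter. By decile this share was 2.01% at the top, 0.569% in decile 4 and 6.21% in the dimmest. Among lists with at least 8 entries, CCAAT was most frequent in radial glia genes (87.5% of 8), mitosis genes (86.7% of 15), photoreceptor genes (70% of 10), and replication genes (64.3% of 14). TGACGTCA was most frequent in neuropeptide genes (18.2% of 22), immediate early genes (13.3% of 15) and striatal genes (12.5% of 8), so each of these shares rests on few genes. These are descriptions of 1 RNA pool, and genes that share families are not independent of each other.

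The markers of cortical projection neurons, the excitatory cells that send long axons, were among the brightest of any cell type list. Of 12 measured genes that these neurons share, 11 were above the yardstick and 8 were in the top decile, against 10% of all named genes, with a median of 16.83 where all named genes had 11.65. Neurod6, a helix-loop-helix factor of young projection neurons, measured 18.08, 18.10, 18.08, 17.88 and 18.08, level on 4 arrays and lower on array 4. Tbr1, a T-box factor of early-born deep-layer neurons, measured 17.81, 17.75, 17.75, 17.93 and 17.92. Mpped1 came to 18.27 ± 0.04, Mef2c, a factor of synapse and dendrite development, to 17.49 ± 0.10, and Nrgn, a calmodulin-binding protein of dendrites, to 17.40 ± 0.09. The exception was Camk2a, a kinase of mature excitatory synapses, which measured 10.03, 9.87, 9.43, 10.50 and 10.49 and was above the yardstick on no array. Its relatives Camk2g and Camk2b came to 16.91 ± 0.07 and 14.44 ± 0.14. The labelled tissue thus carried its defining markers. In a bulk sample such as this pool, more cells of a type and more RNA per cell cannot be told apart.

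By layer, all 11 deep-layer genes were above the yardstick and 5 in the top decile, against 7 and 1 of 8 upper-layer genes. Among all named genes the shares were 52.9% and 10%. Among the deep-layer genes, Bcl11b, which directs the growth of axons to the spinal cord, measured 16.18, 16.17, 16.24, 16.21 and 16.19. Pcp4 was at 17.39 ± 0.06, Crym at 17.31 ± 0.08, Fezf2, which specifies subcortical projection neurons, at 14.02 ± 0.14, and Foxp2 at 12.87 ± 0.11. The upper-layer list was led by Lmo4, a LIM-domain cofactor, with 17.08, 16.94, 17.09, 16.83 and 16.86. It was followed by Inhba at 15.20 ± 0.16 and Pou3f1 at 14.36 ± 0.13, while Cux2 was at 13.61 ± 0.06. Unc5d, a netrin receptor, was dim and uneven at 8.56 ± 1.13. Of 6 subplate genes 3 were above the yardstick, Tmem163 at 16.10 ± 0.12, Nr4a2 at 14.98 ± 0.16 and Ccn2 at 13.88 ± 0.03. Of 6 genes of Cajal-Retzius cells, the first neurons of the surface, 4 were above it, led by Calb2 at 14.85 ± 0.15. Reln, the glycoprotein those cells secrete, measured 11.08, 10.81, 11.13, 10.45 and 10.92, at the height of the yardstick, and passed it on no array.

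Interneurons were seen through bright genes of GABA synthesis, of peptides and of the Dlx family, while other class markers were dim. Of 17 measured genes, 14 were above the yardstick and 5 in the top decile, beside 52.9% and 10% of all named genes. Sst measured 17.25, 17.25, 17.24, 17.01 and 17.14. Npy, a peptide of the same lineage, measured 17.00, 16.98, 16.95, 16.73 and 16.92, so array 4 was lowest for both. Gad1, an enzyme that makes GABA, measured 16.65, 16.73, 16.75, 16.85 and 16.95, array 1 being the lowest here. Slc32a1, which loads GABA into vesicles, came to 16.34 ± 0.06 and the homeobox factor Dlx1 to 16.09 ± 0.06. Dlx5 and Dlx2 of the same family were at 15.24 ± 0.05 and 11.52 ± 0.15. Vip, a peptide of another interneuron class, was lower at 11.97 ± 0.10. The genes not above the yardstick were Htr3a at 10.61 ± 0.23, Pvalb, the calcium buffer of fast-spiking cells, which measured 11.30, 9.17, 10.76, 9.78 and 9.85, and Nkx2-1, a factor of the medial ganglionic eminence, at 9.32 ± 0.73.

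Radial glia were represented by a few very bright genes above a broad middle. Of 16 genes 13 were above the yardstick and 5 in the top decile, beside 52.9% and 10% of all named genes. Fabp7 measured 19.66, 19.66, 19.73, 19.53 and 19.71 and ranked 46 among named genes. Vim, the intermediate filament of radial fibres, measured 18.10, 18.05, 18.17, 17.85 and 17.97. Tnc, a matrix protein, came to 16.32 ± 0.10, Hes5, a target of Notch signalling, to 15.92 ± 0.09 and the stem cell factor Sox2 to 15.54 ± 0.09. Pax6, the factor of cortical progenitors, was far lower at 12.19 ± 0.17, and Msi1, Notch1 and Prom1 were not above the yardstick. Intermediate progenitors, the dividing daughters of radial glia, had 7 of 9 genes above it and 1 in the top decile. That gene was Elavl4 at 17.56 ± 0.04, an RNA-binding protein that postmitotic neurons also make. Eomes, the defining factor of these progenitors, averaged 10.49 ± 0.40 and passed the yardstick on no array. Neurog2, at 10.82 ± 0.19, passed it on 1 array, whereas Insm1 was at 13.60 ± 0.09.

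Genes of astrocytes, the glia that feed neurons and clear their transmitter, were split in the same way. Of 11 genes 9 were above the yardstick and 4 in the top decile, beside 52.9% and 10% of all named genes. Apoe, the lipid carrier, measured 19.02, 18.90, 19.16, 18.81 and 19.01. Sparcl1, a secreted protein that promotes synapses, measured 18.70, 18.72, 18.83, 18.84 and 18.69. Glul, the glutamine synthetase, came to 18.07 ± 0.09 and Clu to 17.69 ± 0.10. The glutamate transporters differed: Slc1a3, which radial glia also carry, was at 14.69 ± 0.14, and Slc1a2, the transporter of mature astrocytes, measured 10.43, 10.58, 10.35, 10.08 and 10.15, below the yardstick throughout. In the oligodendrocyte lineage 5 of 10 genes were above the yardstick, near the 52.9% of all named genes, and none in the top decile. The factors of its precursors, Olig1 and Olig2, were at 12.50 ± 0.06 and 12.19 ± 0.09. Mbp, a main protein of myelin, measured 11.97, 11.91, 11.94, 12.13 and 12.22, and the later myelin proteins Mag and Mog were at 9.48 ± 0.36 and 8.14 ± 0.41.

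Cells that enter the brain or line its vessels and surfaces were measured at middle levels. Of 10 genes of microglia and macrophages, 6 were above the yardstick, beside 52.9% of all named genes. The complement gene C1qa led them with 14.54, 14.46, 14.62, 14.60 and 14.55. Of 17 endothelial and pericyte genes 12 were above it. Cldn5, the tight junction protein of the blood-brain barrier, measured 16.05, 16.06, 16.19, 16.09 and 16.18 and was the 1 member in the top decile. Of 13 genes of meninges and fibroblasts 10 were above the yardstick. Their leader was the collagen Col3a1 with 15.95, 15.87, 15.91, 15.84 and 15.92, followed by Dcn at 15.26 ± 0.07.

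**Figure D3:**
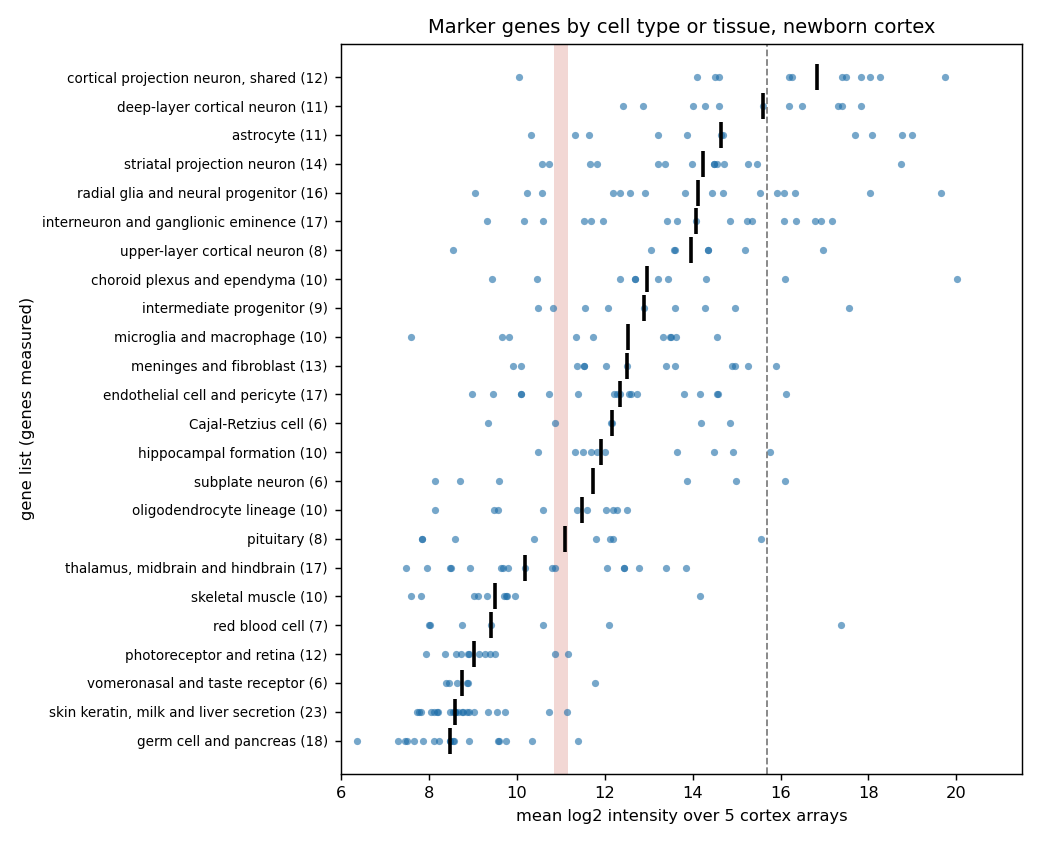
Mean log2 intensity over the 5 cortex arrays for each gene (blue point) of 24 lists of cell type or tissue markers, with the number measured in brackets and the list's median as a black bar. The pink band is the olfactory receptor yardstick and the dashed line the edge of the top decile of named genes at 15.68. Shared markers of projection neurons had the highest median at 16.83, and the lists for skin, milk and liver and for germ cells and pancreas lay at the bottom.

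Markers of tissues beside the cortex differed from list to list. Choroid plexus and ependyma had 8 of 10 genes above the yardstick, beside 52.9% of all named genes. Ttr, the thyroid hormone carrier of the choroid plexus, measured 20.00, 19.95, 20.16, 19.95 and 20.05 and ranked 28 among named genes. The other 9 were at or below 16.10, where Igfbp2 stood, with Otx2 at 13.22 ± 0.19, Folr1 at 12.34 ± 0.20 and Kl at 9.44 ± 0.39. Of 14 striatal genes 12 were above the yardstick. Meis2, a homeobox factor, led with 18.80, 18.76, 18.83, 18.53 and 18.77, followed by Foxp1 at 15.45 ± 0.04, both of which cortical cells can express as well. Genes closer to the striatum alone were lower, with the peptide precursor Penk at 15.26 ± 0.08, the signalling regulator Rgs9 at 14.50 ± 0.09 and the dopamine receptor Drd1 at 13.37 ± 0.09. The hippocampal list had 8 of 10 above, led by Lmo3 at 15.77 ± 0.10, and Prox1 at 11.70 ± 0.10. Of 17 genes of thalamus, midbrain and hindbrain, 6 were above the yardstick (35.3%, beside 52.9% of all named genes) and none in the top decile, with Th, the first enzyme of dopamine synthesis, the highest at 13.85 ± 0.11 and Hoxb3 at 12.45 ± 0.19. The serotonin enzyme Tph2 and the midbrain factors Pax5 and Pax7 were not above it.

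Blood and pituitary genes gave a sharper split within their lists. Hba-a1, an adult alpha-globin, measured 17.49, 17.38, 17.48, 17.03 and 17.49, lower on array 4. The haem enzyme Alas2 was above the yardstick at 12.11 ± 0.12. The other 5 of 7 red blood cell genes were not, among them the embryonic globins Hbb-y at 10.59 ± 0.36 and Hba-x at 9.41 ± 0.77. Among 8 pituitary genes 4 were above the yardstick, near the 52.9% of all named genes. Gh, growth hormone, measured 15.58, 15.39, 15.61, 15.57 and 15.61. Pomc, Cga and Lhb were above the yardstick at 12.18 ± 0.13, 12.12 ± 0.14 and 11.81 ± 0.19, and Prl, Tbx19, Tshb and Ghrhr were not, with Prl at 7.84 ± 0.47. How much of the Ttr, globin, Gh or striatal signal came from tissue taken with the cortex was not tested.

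The 3 lists chosen as further yardsticks were dim, beside 52.9% of all named genes above the olfactory receptor yardstick. The list of vomeronasal and taste receptors had 6 measured genes, all of them taste receptors, and 1 was above it. Of 23 genes of skin keratins, milk proteins and liver secretion none was above the olfactory receptor yardstick, and of 18 genes of germ cells and pancreas 1 was, Gdf9 at 11.40 ± 0.26. Marker lists of other tissues were dim as well. Of 12 photoreceptor and retina genes none was above the yardstick, and the highest was Gnat1 at 11.18 ± 0.29. Skeletal muscle had 1 of 10 above, Acta1 at 14.16 ± 0.09, while Myog, Ckm and Mylpf lay below 10. Acta1 is nearly identical to other actins, and which transcript its probe read was not tested. The vomeronasal receptor family, grouped by symbol and chosen after its values had been seen, had 3 of 113 genes above the yardstick. Vmn1r58 was a bright probe with 18.71, 18.70, 18.79, 18.58 and 18.60.

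The genes that build an axon included some of the brightest of the array. Of the 27 measured genes for immature neurons and growing axons, 22 were above the yardstick and 13 in the top decile. Among all named genes the shares were 52.9% and 10%. Together the 27 genes held 1.33% ± 0.04 of the summed intensity. Gap43, a protein of growth cones, measured 18.77, 18.64, 18.71, 18.41 and 18.70. Map1b, a microtubule-binding protein of young axons, measured 18.64, 18.59, 18.68, 18.67 and 18.68. Stmn3 was at 19.25 ± 0.09, Crmp1 at 18.88 ± 0.11 and Dpysl3 at 18.58 ± 0.06, the last 2 being relatives that pass on semaphorin signals. Dcx, needed for neurons to migrate, was lower at 14.82 ± 0.17. The guidance receptors spread widely: Robo1 came to 14.86 ± 0.07, Nrp1 to 13.93 ± 0.04 and Robo2 to 11.40 ± 0.15, and Dcc, the netrin receptor, to 8.33 ± 0.56, not above the yardstick.

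All 12 tubulin genes were above the yardstick and 7 in the top decile, beside 52.9% and 10% of all named genes. They ran from Tuba1a at 20.79 down to Tubd1 at 11.67 ± 0.14. Tubb2b was at 20.33 ± 0.15 and Tubb3, the neuronal beta-tubulin, at 20.21 ± 0.05. Of 12 actin, thymosin and cofilin genes 10 were above it, with Actb at 20.28 ± 0.09, Actg1 at 20.13 ± 0.11 and Tmsb4x at 19.51 ± 0.07, and the muscle actins Actc1 and Acta2 at 7.59 ± 0.53 and 7.05 ± 0.34. Tuba8 at 19.32 ± 0.10 and Actg2 at 17.84 ± 0.08 belong to families of near-identical sequence, and which member their probes read was not tested.

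Ribosomal genes had the highest median of all lists, 19.03. Of 31 measured genes 29 were above the yardstick and 28 in the top decile, beside 52.9% and 10% of all named genes. The 31 genes held 2.92% ± 0.05 of the summed intensity. Rps12 measured 20.61, 20.80, 20.79, 20.73 and 20.86, and Rps7, another protein of the small subunit, averaged 20.30 ± 0.06. The exceptions were Rpl37 at 9.30 ± 0.73 and Rpsa at 8.01 ± 0.21, which no array placed above the yardstick, and Rpl4 at 13.79 ± 0.08. Of 21 genes of oxidative phosphorylation, the mitochondrial machinery that makes ATP, 20 were above it and 17 in the top decile. The ATP synthase subunit Atp5b measured 19.06, 18.96, 19.15, 18.93 and 18.99, and Sdhb, a subunit of complex II, was the exception at 9.26 ± 1.05. Of 13 glycolysis genes 12 were above it and 6 in the top decile, led by Gapdh with 19.31, 19.20, 19.52, 19.09 and 19.20. Reference genes used to scale other assays ranged from Eef1a1 at 21.09 to Tfrc at 11.03 ± 0.30.

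Synapses gave a mixed picture. Of 20 genes of synaptic vesicles and release 14 were above the yardstick and 7 in the top decile. Among all named genes the shares were 52.9% and 10%. Syt4, a vesicle protein of the synaptotagmin family, measured 18.28, 18.28, 18.30, 18.41 and 18.34. Stx1a, a membrane protein of the fusion machinery, measured 17.86, 17.90, 17.84, 17.80 and 17.95. Its partner Snap25 measured 8.98, 9.28, 9.55, 8.31 and 8.58 and Nsf, which takes the fused complex apart, averaged 8.28 ± 0.42, both below the yardstick on all arrays. Of 17 postsynaptic scaffold and adhesion genes 16 were above it and 6 in the top decile. Nlgn2, an adhesion protein of inhibitory synapses, measured 18.22, 18.24, 18.23, 18.27 and 18.36, and Dlg4, the main scaffold of excitatory synapses, averaged 13.07 ± 0.07.

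Within the lists of glutamate, GABA and glycine receptors, genes of the AMPA type were the brightest. Gria2, the subunit that keeps these channels impermeable to calcium, measured 16.89, 16.98, 16.94, 16.89 and 17.09. Gria1 came to 15.96 ± 0.13, and these 2 were the only members in the top decile of 15 glutamate receptor genes, of which 11 were above the yardstick. The NMDA receptor subunits Grin2b, the form of early life, and Grin2a, the later form, were at 12.76 ± 0.06 and 12.38 ± 0.10. That Grin2a value is its brightest probe, and its other probes were far lower at 8.45 and 8.42. Of 19 GABA and glycine receptor genes 9 were above the yardstick and none in the top decile, beside 52.9% and 10% of all named genes. Gabra2 was highest at 15.38 ± 0.15, Gabra5 was at 14.58 ± 0.09, Glra2, the fetal glycine receptor subunit, at 13.51 ± 0.04, and Gabra6, a subunit of cerebellar granule cells, at 7.63 ± 0.35. Chloride transporters set whether GABA excites or inhibits a young neuron. Slc12a2, which brings chloride in, measured 13.63, 13.54, 13.57, 13.63 and 13.52. Slc12a5, which takes it out, measured 11.72, 11.24, 11.62, 11.52 and 11.64. These are signals of different probes, and no ratio of transcripts is drawn from them.

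Peptide and granule genes were widely above the yardstick, 23 of 27, with 8 in the top decile, beside 52.9% and 10% of all named genes. Pcsk1n, an inhibitor of peptide processing, measured 18.21, 18.14, 18.10, 18.20 and 18.16. Cck measured 17.33, 17.39, 17.39, 17.40 and 17.44, and the granule proteins Scg3 and Chgb came to 17.39 ± 0.10 and 17.36 ± 0.07. Of 19 growth and trophic factors only 7 were above it. Ptn, pleiotrophin, measured 19.15, 19.25, 19.34, 19.18 and 19.24 and ranked 70 among named genes, Pdgfa came to 16.82 ± 0.05 and Mdk, the relative of Ptn, to 15.62 ± 0.11. Bdnf, a growth factor of active neurons, measured 8.44, 10.53, 10.38, 9.86 and 10.71, and Shh came to 9.16 ± 0.63. Of 21 immediate early genes, which neurons and handled tissue switch on quickly, 14 were above the yardstick. Ier5 at 15.70 ± 0.11 was the 1 in the top decile, and left it when array 1 was left out. Jun was at 15.04 ± 0.09, Fos at 11.77 ± 0.07, and Npas4, which responds to neuronal activity, at 9.40 ± 0.26.

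Genes of cell division lay at middle levels beside the single bright Ube2c probe. Replication genes had a median of 12.11 and mitosis and cyclin genes 12.55, where all named genes had 11.65. Of 15 replication genes 9 were above the yardstick, near the 52.9% of all named genes, and 6 passed it on no array. Pcna, the clamp of DNA polymerase, was in the top decile with 16.58, 16.53, 16.59, 16.78 and 16.69. Of 20 mitosis and cyclin genes 16 were above it, with Ccnd1 at 15.41 ± 0.12, Ccnd2 at 15.12 ± 0.04 and Cdc20 at 13.96 ± 0.08. Cdk1, the kinase that starts mitosis, measured 8.77, 8.35, 8.28, 8.74 and 7.58 and was not above it. Of 16 imprinted genes, which are read from 1 parental copy, 12 were above the yardstick and 4 in the top decile. Nnat measured 19.35, 19.26, 19.37, 19.11 and 19.30. Gnas came to 19.19 ± 0.10 with its brightest of 3 probes, while its dimmest stood at 8.76. Of 9 sex chromosome genes 4 were above the yardstick. The Y-linked Eif2s3y measured 14.61, 14.67, 14.59, 14.72 and 14.72; its X-linked partner Eif2s3x, close in sequence, came to 15.33 ± 0.10, and which transcript each probe read was not tested. The Y-linked Uty at 9.54 ± 0.54 and Kdm5d at 8.43 ± 0.90 were not above the yardstick.

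**Figure D4:**
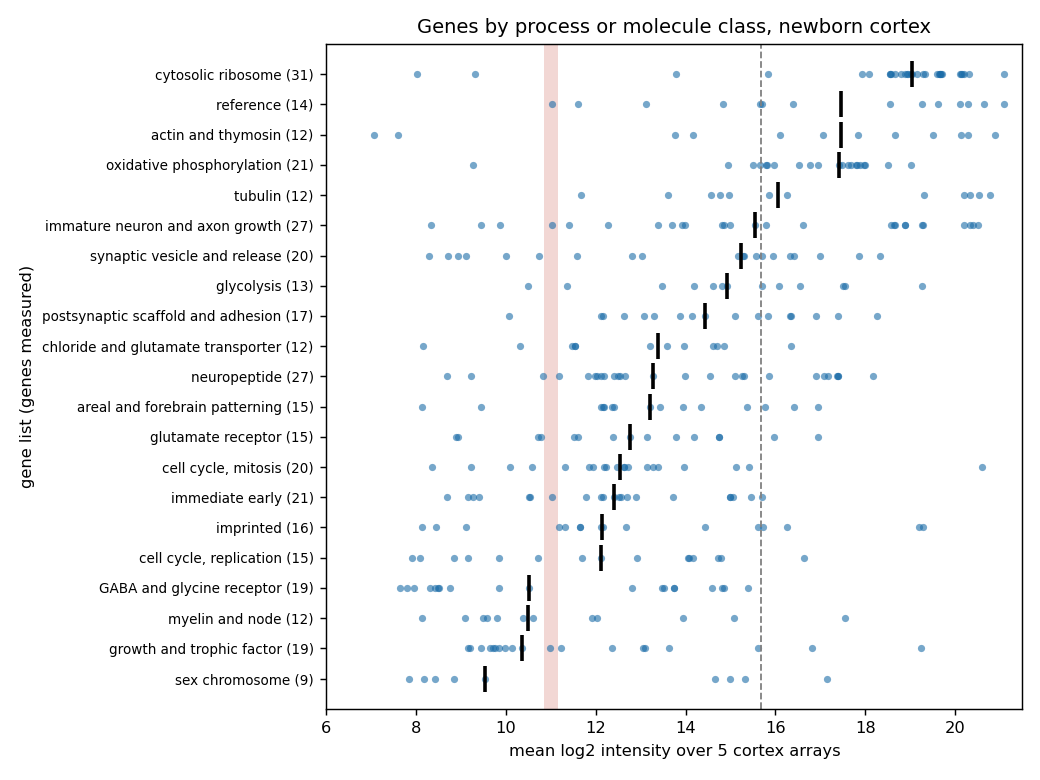
Mean log2 intensity over the 5 cortex arrays for each gene (blue point) of 21 lists of processes or molecule classes, with the number measured in brackets and the list's median as a black bar; the pink band is the yardstick and the dashed line the edge of the top decile. Ribosomal genes had the highest median at 19.03, and most lists held single genes far below the rest, such as Rpl37, Rpsa and Sdhb.

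Gene families grouped by symbol, which were chosen after their values had been seen, ran from wholly bright to wholly dim. All 5 measured genes of the 14-3-3 family, adaptor proteins abundant in brain, were in the top decile, from Ywhae at 20.29 ± 0.08 to Ywhag at 16.02 ± 0.06, as were all 4 stathmins. Of 9 genes of the chaperonin that folds actin and tubulin, 8 were in the top decile, with Cct6a at 19.17 ± 0.07. Of 30 subunits of mitochondrial complex I 22 were, of 35 proteasome genes 17, and of 65 mitochondrial ribosomal genes 22. All named genes had 10% there. Among the transcription factor families looked at, the highest were Nfix, a nuclear factor I protein, which measured 19.56, 19.42, 19.56, 19.21 and 19.43, then Tcf4 at 18.96 ± 0.11, Meis2 at 18.74 ± 0.12 and Klf7 at 18.05 ± 0.07. Hox genes, which pattern the body behind the forebrain, had 4 of 30 above the yardstick, beside 52.9% of all named genes. T-box genes grouped under Tbx had 0 of 12. Tbr1, which carries another symbol, is not in that count.

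Receptor, channel, guidance and adhesion families were mixed, beside 52.9% of all named genes above the yardstick and 10% in the top decile. No serotonin receptor of 14 and no muscarinic receptor of 4 was above the yardstick, and 1 of 12 nicotinic receptor genes was. Of 66 potassium channel genes 25 were above it and 2 in the top decile, Kcnmb4 at 17.22 ± 0.03 and Kcnd2 at 16.60 ± 0.10. Calcium channel genes had 11 of 18 above it and 1 in the top decile. Of 40 protocadherins, adhesion proteins that give neurons their identity, 24 were above it and none in the top decile. Of 17 semaphorins 9 were above it, with Sema7a at 16.16 ± 0.10 and Sema6b at 16.13 ± 0.07. The other probe of Sema7a was not above the yardstick, at 10.64. Of 13 ephrin receptors 7 were above it, Ephb1 the highest at 14.85 ± 0.03. Cdh2, the N-cadherin that holds radial glia together, came to 16.36 ± 0.08. Of 18 Wnt genes 2 were above it, Wnt7b at 13.09 ± 0.06 and Wnt4 at 12.69 ± 0.11. The beta-defensin family had 0 of 20 and the prolactin family 0 of 18.

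How far a level can be read as the gene's own was measured on the 540 genes with several probes. The brightest and dimmest probe of a gene differed by a median of 1.46 on the log2 scale, with quartiles of 0.70 and 2.71, and by over 1 in 340 genes (63.0%). The same probes had a median SD of 0.14 between arrays, so probes of 1 gene disagreed by far more than repeats of 1 probe. The disagreement was not limited to dim probes. Among 239 genes whose probes were all above the yardstick the median difference was 1.33, and 16 of these differed by over 4. The largest were Rpl21, with probes at 20.11 and 12.29, Btf3 at 19.37 and 11.96, and Rps15a at 19.29 and 12.49. Abat, which breaks down GABA, had probes at 17.11 and 11.56. In 136 genes 1 probe was above the yardstick and another was not. A single dim probe, as for Snap25, Camk2a, Cdk1 or Rpsa, is thus a statement about that probe.

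The spread itself depended on the level in a way that was not monotonic. The median SD was 0.08 in the brightest decile of probes and 0.09, 0.10, 0.15, 0.28 and 0.53 in the next 5. It was highest in the seventh, 0.65, and fell to 0.58, 0.52 and 0.46 in the dimmest 3. Among named probes above the yardstick the steadiest was Map3k11 with 13.08, 13.07, 13.06, 13.07 and 13.08. The least steady of these was Patl2 with 12.79, 11.75, 14.23, 11.80 and 11.85, where array 3 stood above the others. Pla2g4a, a phospholipase, measured 14.13, 13.94, 13.01, 12.45 and 12.33, high on arrays 1 and 2.

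**Figure D5:**
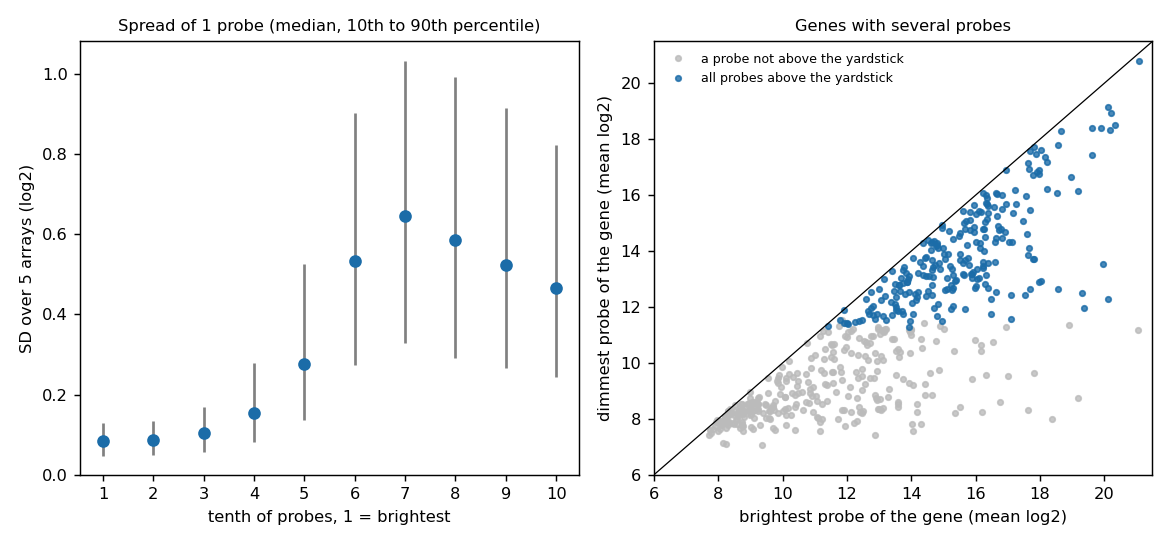
Left, the median SD of log2 intensity over the 5 arrays (point) with the 10th to 90th percentile (line) for each decile of probes from the brightest; it rises from 0.08 to 0.65 in the seventh decile and then falls. Right, the brightest against the dimmest probe for 540 genes with several probes, in blue where all probes were above the yardstick; points on the diagonal would be genes whose probes agree, and many lie several log2 units under it.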

How the data were processed

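The arrays measured pooled cortex RNA (5 arrays) of a series of 10. The deposited table holds 33012 positive linear intensity values per array. Which scanner software, background correction and normalization the authors applied to this intensity is not given in the sources used here. Values were turned into log2 from the deposited intensity without further scaling, and mean, SD and rank were taken over the 5 cortex arrays with Python 3.11.15, numpy 2.4.6 and pandas 2.3.3. No contrast and no test was made, so there are no p-values; precision is limited by having 5 arrays. The spread between repeats of 1 pool is technical.

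Probes were named from the platform annotation, which can be old: 14411 had 1 symbol, 247 several and 18354 none. RefSeq matched 14402 by Entrez ID and changed 0 symbols. The 45 gene lists hold 793 genes, 592 of them measured; members and lists were chosen with earlier results of these data known. Of the 592, 390 were above the yardstick and 145 in the top decile. Genes were named by rule: the 40 brightest named probes, the 6 highest and 3 lowest members of each list (all of a list of 8 or fewer), the 10 largest and 10 smallest SDs above the yardstick, and the 8 largest differences between probes that both passed it, passing over predicted loci. Other list members, and the 55 families, are examples chosen after their values were seen, as were Sdf2 and Slc29a4 by their place at the border. Promoters came from RefSeq's GRCm38.p6 table, 250 bases before to 50 after the start; 9118 genes had exactly 1. The scripts were tested on simulated data. Alternatives were other scalings, an offset of 100 before the log, other yardsticks, the median, other choices of probe and leaving out each array.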

Additional observations from a re-analysis of the deposited data

Results flagged for a closer look

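Within the 5 arrays, 33 of the 410 genes named by rule (8.05%) had 1 array so far from the other 4 that the gap exceeded Dixon's 95% critical value of 0.71 of the whole range. Chance flags about 5% of such groups, but the 8.05% cannot be set against it: the rule also names the 10 largest and 10 smallest SDs, and 6 of the 33 genes (Mthfs, Supt5, Abhd11, Galns, Ube2t and Srsf3) were named for that. Array 4 was the low one in 14 of the 33 and no other array was low in more than 4. The cause was not tested. Over all probes above the yardstick 815 (6.23%) had such a gap, and after quantile normalization over the 5 arrays 697 (5.33%), when array 4 was low in 177 and high in 168.

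Array 4 was low for the following genes above the yardstick. The ribosomal protein gene Rps19 had 19.62 against 19.73 to 19.77 on the other arrays. The homeobox gene Meis2 had 18.53 against 18.76 to 18.83, and the projection neuron factor Neurod6 17.88 against 18.08 to 18.10. The globin gene Hba-a1 had 17.03 against 17.38 to 17.49. The interneuron factor Dlx1 had 15.99 against 16.10 to 16.13, Lmo3 had 15.60 against 15.78 to 15.84, and Nr2f2 had 15.18 against 15.36 to 15.43. The subplate marker Nr4a2 had 14.70 against 15.01 to 15.09, the replication gene Mcm5 14.64 against 14.80 to 14.85, Nhlh2 13.98 against 14.22 to 14.29, and Tgfb2 12.86 against 13.07 to 13.15. Array 4 was high for Btg2 with 13.03 against 12.84 to 12.90.

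On other arrays, Srsf3 had 17.59 on array 2 where all others were at 17.61, a gap that is small in itself since this probe was among the steadiest. Growth hormone, Gh, had 15.39 on array 2 against 15.57 to 15.61. Array 3 was low for Abhd11 with 13.43 against 14.82 to 15.12 and for Otx2 with 12.88 against 13.24 to 13.33, and high for Galns with 12.88 against 11.29 to 11.55. Array 2 was high for Mthfs with 14.16 against 12.05 to 12.33. Array 1 was high for Supt5 with 13.99 against 11.82 to 12.43, for Ube2t with 13.11 against 11.87 to 12.11 and for Drd2 with 12.42 against 11.28 to 11.61.

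The remaining 12 genes were not above the yardstick on all arrays. Low values were 10.61 for Slc1a6, 8.47 for Cldn11 and 7.42 for Abcc9 on array 4, 9.27 for Cdh5 on array 3, 9.40 for Cenpe and 6.78 for Fga on array 2, 8.26 for Itgam on array 1 and 7.23 for Rpe65 on array 5. High values were 12.07 for Krt14 and 9.0 for Ghrhr on array 5, and 11.23 for Prph2 and 11.82 for Grm6 on array 3, where the other arrays gave Grm6 7.79 to 8.55.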

How the results depend on the processing

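The count of probes above the yardstick, 13088, was 13087 to 14874 under the other scalings, the offset, the 90th percentile, the mean over arrays and a vomeronasal receptor yardstick (14599; chosen after seeing the data), and 13109 to 13235 without 1 array. It fell to 7255 with the 99th percentile. The median SD of a probe, 0.29, was 0.24 with the offset of 100, 0.10 over probes above the yardstick, 0.09 over those after quantile normalization (0.0910; chosen after seeing the data), and 0.258 to 0.266 without 1 array. The median difference between probes of 1 gene, 1.46, was 1.38 with the offset, 1.33 where all probes were above the yardstick, and 1.45 to 1.52 without 1 array. List members in the top decile, 145, were 141 to 170 under all alternatives, and 97 to 100 of the 100 brightest probes were kept. Quantile normalization over all 10 arrays moved the level of 275 of the 410 named genes by more than their spread, with a median shift of -0.20, and their rank by at most 0.686% of the named genes. Ranks of dim genes were loose: without array 3 that of Grm6 moved by 13.1%. No paired analysis was possible because the description has 1 group. No detection call was available for dim probes here, so only the yardstick limits what a low signal can show.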
